A study of Homo sapiens with 10 samples.

Results

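Chromosome 10 was examined as a row of windows of 0.25 Mb in hg38, in which the RNA counts of neighbouring genes were added together. Each gene was placed by the midpoint of its lowest start and highest end, the counts of a window were summed in each library, and windows with a sum of at least 100 over the 10 libraries were kept. Of the 536 windows up to the last gene midpoint, 489 held a midpoint and 278 were kept, out of 5907 windows kept in the same way on chromosomes 1 to 22 and X. The kept windows held 99.9% of the chromosome's counts. The 2 windows with the largest sums under the minimum held 96 and 97 counts, and the 2 with the smallest sums above it held 106 and 109. The value followed along the chromosome was the log2 ratio of T24R2 to T24 in each window, and steps in its level were sought. The windows were chosen by their summed counts and the stretches by this ratio, so the levels on either side of a step are given as a description and carry no test.

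RNA-seq was done on T24, a cell line from a human bladder carcinoma, and on T24R2, a derivative obtained by serial exposure of T24 to cisplatin, with 5 replicates of each line on day 3. No other allele or agent is named for either line. The methods keep T24R2 in medium with cisplatin, whereas the sample labels give both lines the same medium without it, so the line and the drug cannot be told apart here. T24R2 is 1 derived line, and nothing in the labels says that the replicates were separate cultures, so the spread between them may be technical.

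Chromosome 10 carries genes of several functions that matter to a carcinoma cell. Its short arm holds the aldo-keto reductase cluster, the transcription factor gene GATA3 and the gene of the intermediate filament protein vimentin, and its long arm holds the interferon-induced IFIT cluster and mitotic genes such as CDK1 and MKI67. Cancer lines often gain or lose whole arms or long pieces of a chromosome, and the RNA of many genes tends to follow the number of gene copies, so a shift shared by long runs of neighbouring genes is a usual pattern to look for in RNA. DNA copy number was not analysed here, and its part in the levels below was not tested.

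The promoters of 3 genes are shown because ANK3 and CDK1 were the nearest tested genes on either side of the step described below, and MKI67 is a distal member of the same cell cycle list as CDK1. The sequences are RefSeq promoters of GRCh38.p14, from 250 bases before to 50 bases after the start site, read 5′ to 3′ along the strand of the gene. Of the several entries of a gene, the one whose start site lay nearest to the gene's start in the tables was taken. Capitals mark TTTGAA, the core of the cell cycle genes homology region, searched on both strands. The ANK3 promoter lies at chr10:60733479-60733778 on the minus strand, the CDK1 promoter at chr10:60778081-60778380 on the plus strand and the MKI67 promoter at chr10:128126374-128126673 on the minus strand.
ANK3: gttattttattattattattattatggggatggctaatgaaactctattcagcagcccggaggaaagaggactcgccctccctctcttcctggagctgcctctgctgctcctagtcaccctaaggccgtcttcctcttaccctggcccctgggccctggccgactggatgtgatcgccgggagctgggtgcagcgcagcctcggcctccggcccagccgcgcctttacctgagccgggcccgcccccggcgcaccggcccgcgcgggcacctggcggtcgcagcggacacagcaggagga
CDK1: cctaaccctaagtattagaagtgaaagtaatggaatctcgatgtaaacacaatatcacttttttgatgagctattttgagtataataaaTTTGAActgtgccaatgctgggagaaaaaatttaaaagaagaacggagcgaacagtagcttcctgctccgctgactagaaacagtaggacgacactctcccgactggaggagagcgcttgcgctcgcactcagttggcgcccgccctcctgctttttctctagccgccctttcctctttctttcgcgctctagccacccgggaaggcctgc
MKI67: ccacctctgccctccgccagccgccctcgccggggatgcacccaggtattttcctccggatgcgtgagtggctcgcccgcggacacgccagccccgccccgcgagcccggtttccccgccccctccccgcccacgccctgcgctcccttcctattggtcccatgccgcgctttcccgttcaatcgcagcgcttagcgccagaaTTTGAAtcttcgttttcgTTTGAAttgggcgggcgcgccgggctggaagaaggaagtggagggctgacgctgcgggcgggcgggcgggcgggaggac
TTTGAA was found once in the CDK1 promoter and 2 times in the MKI67 promoter, and these letters were not in the ANK3 window. On either strand it was in 15.2% of all 35116 promoters and in 18.5% of the 1680 promoters of chromosome 10. Of the 12 promoters matched to the 13 members of the cell cycle list, 8 held it, among them 5 of the 6 distal genes with a matched promoter that were called lower (CDK1, MKI67, KIF11, KIF20B and CEP55, but not HELLS). The promoters of MASTL, SMC3 and ERCC6, which were not called, held it as well. A match is given as a description of the sequence only.

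Total counts ranged from 9257843 to 10247941 in T24 and from 9591379 to 10840954 in T24R2, and chromosome 10 took 3.13% to 3.18% of them in T24 and 3.17% to 3.31% in T24R2. Levels are given as CPM, counts scaled per 1e+06 of the TMM-adjusted library size, where TMM is the scaling of edgeR. The epithelial markers summed to 4928 to 5658 CPM in T24 and to 3004 to 3207 CPM in T24R2, mostly from the keratin genes KRT7, KRT8 and KRT18, which were detected in both lines. Keratin KRT19 went from 266 ± 7.20 CPM in T24 to 0.09 ± 0.12 CPM in T24R2, and the adhesion gene EPCAM from 4.44 ± 0.90 to 0.13 ± 0.05 CPM. Of the 13 markers, CDH1, of epithelial junctions, and the uroplakin genes UPK1B and UPK3A had at most 3 counts in any library, and basal KRT5 was at 0 in T24 and had 6 counts in 1 T24R2 library. The endothelial marker list summed to 225 to 277 CPM in T24, almost all of it from CDH5, and to 1.60 to 2.49 CPM in T24R2. The 6 fibroblast markers summed to at most 11.2 CPM and the 5 leukocyte markers to at most 1.78 CPM in any library. In bulk libraries such as these, fewer cells of a type and less RNA per cell cannot be told apart.

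A single step was found on chromosome 10, at 60.75 Mb on the long arm. The first stretch ran from the start of the chromosome to 60.5 Mb and held 115 kept windows, and the last stretch ran from 60.75 to 133.75 Mb and held 163. The median log2 ratio was 0.18 in the first stretch and -0.58 in the last, so that the median window of T24R2 stood at 113% of T24 before the step and at 67.0% of T24 after it. The windows scattered widely around these medians, with quartiles of -0.19 and 0.72 in the first stretch and of -1.01 and -0.21 in the last. The noise of the ratio along the chromosome, taken as the mean absolute difference between neighbouring windows divided by 1.5, was 0.89 on the log2 scale, the highest of the 23 chromosomes searched, where it went from 0.43 to 0.89.

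**Figure D1:**
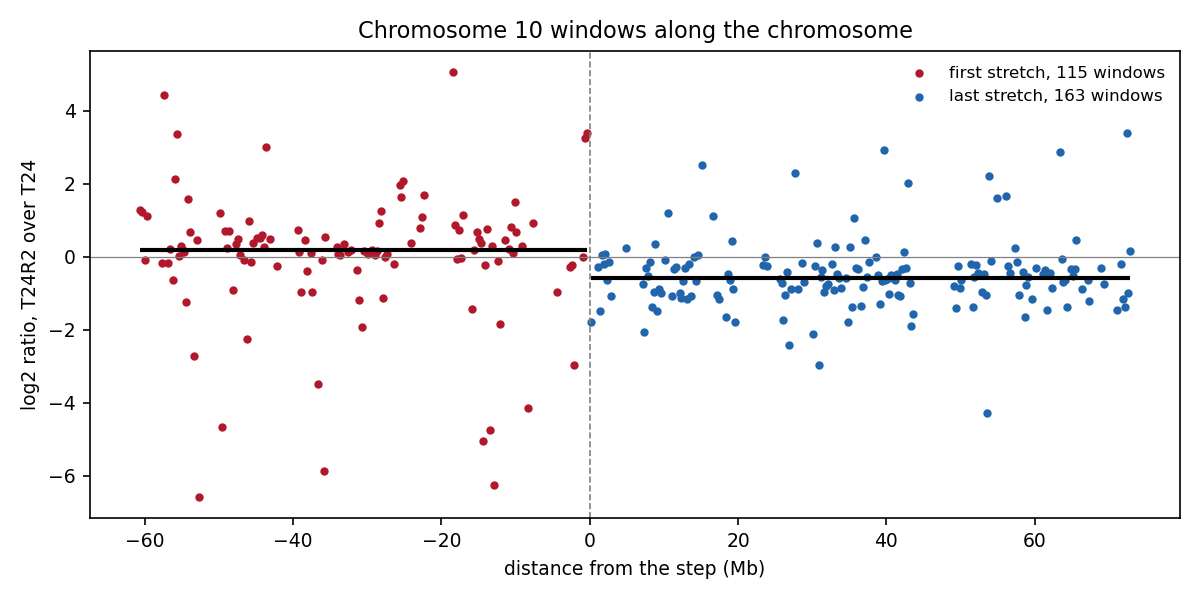
Each point is a kept window, placed by its distance in Mb from the step, with the log2 ratio of T24R2 to T24 on the vertical axis; black lines are the medians of the stretches, 0.18 and -0.58. Most windows right of the dashed line lie below 0, whereas those to its left spread on both sides of 0.

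In single libraries, the median over the windows of the last stretch, as log2 of the library against the T24 mean, was -0.59, -0.59, -0.57, -0.58 and -0.63 in T24R2 replicates 1 to 5. The same value was -0.02, -0.01, 0.01, 0.01 and 0.01 in T24. All T24R2 libraries thus lay below all T24 libraries, and their means were -0.59 ± 0.03 (SD, n = 5) and 0.00 ± 0.01 (SD, n = 5). In the first stretch the median was 0.17, 0.20, 0.21, 0.23 and 0.18 in T24R2 replicates 1 to 5, and it stayed between -0.02 and 0.01 in the T24 libraries. The groups did not overlap here either, with the T24R2 libraries on the higher side.

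**Figure D2:**
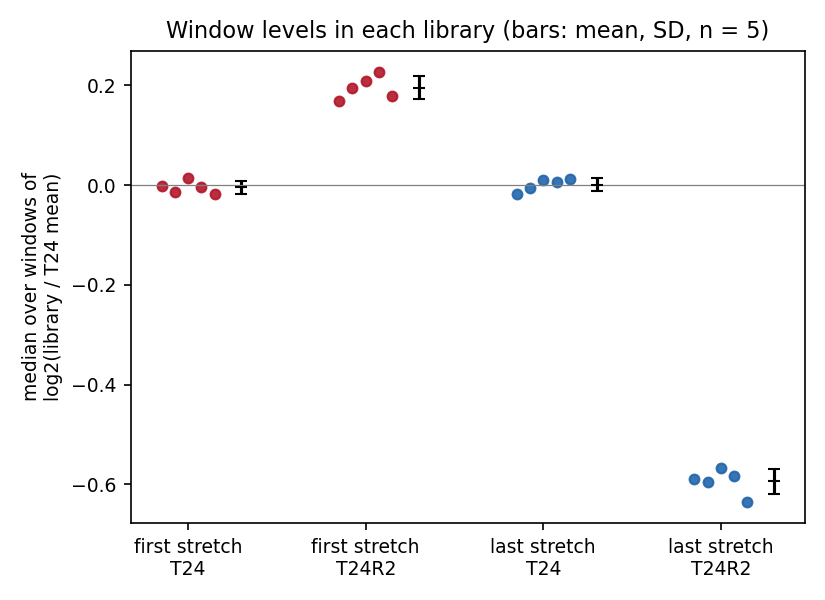
Each point is 1 library, and its height is the median over the windows of a stretch of log2(library / T24 mean); bars give the mean and SD of 5 libraries. The T24R2 libraries sit between 0.17 and 0.23 in the first stretch and between -0.63 and -0.57 in the last.

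The step was also sought in each T24R2 library divided by the T24 library of the same number. Each of the 5 ratios gave 1 step, at 60.75, 63, 52.25, 52.25 and 60.75 Mb for replicates 1 to 5. With the stretches parted at 60.75 Mb for every pair, the median of the last stretch minus that of the first was -0.82 to -0.72 on the log2 scale. These ratios hold the same contrast between the same lines, so they describe the step and do not check it.

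In the last stretch, 137 of 163 windows (84.0%) had a ratio below 0, against 49.6% of all 5907 kept windows. In 116 of its windows (71.2%) every T24R2 library lay below every T24 library, and in 12 (7.36%) every T24R2 library lay above, beside 36.4% and 34.8% of all kept windows. A ratio under -0.5 was found in 90 of these windows and a ratio over 0.5 in 12. In the first stretch, 40 of 115 windows were below 0 and 75 above, 28 were lower in all T24R2 libraries and 51 higher, and 22 were under -0.5 and 38 over 0.5. Over the whole chromosome 112 windows were under -0.5 and 50 over 0.5, beside 26.0% and 23.7% of all kept windows. With library sizes not scaled by TMM these counts were 88 and 65. The contrast behind these counts is the one that placed the step, so nothing is read from them.

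In blocks of 10 Mb, the median ratio was between 0.05 and 0.37 in each of the 6 blocks up to 60 Mb and between -0.88 and -0.32 in each of the 8 blocks from there on. The lowest median of the long arm was in the last block, from 130 Mb, with 8 windows. The 80 windows of the short arm had a median of 0.18 and the 35 windows of the long arm up to the step one of 0.20. The level thus did not part at the centromere, which lies in the gap without kept windows from 38.5 to 42.25 Mb.

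The border of the step was uncertain, and the presence of the step was not tested. Between 52.25 and 60.5 Mb there were only 9 kept windows, with a median ratio of -0.22, of which 6 were below 0. The median of these windows against the T24 mean was -0.33, -0.10, -0.12, -0.16 and -0.08 in T24R2 replicates 1 to 5 and between -0.07 and 0.08 in the T24 libraries. The T24R2 libraries lay between the levels of the 2 stretches and below every T24 library. Without these 9 windows, the first stretch had 106 windows and a median of 0.20, and when they were counted with the distal windows, the 172 windows from 52.25 Mb on had a median of -0.56.

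The genes of this interval differed from each other. Its first window held DKK1, a secreted inhibitor of WNT signalling, which was at 208, 176, 203, 226 and 195 CPM in T24 replicates 1 to 5 and at 9.70, 11.6, 13.0, 12.9 and 11.6 CPM in T24R2. These groups were far apart, with a log2 fold change of -4.10 ± 0.07 (SE). BICC1, an RNA-binding protein gene, had 88.0 ± 3.40 CPM in T24 and 11.1 ± 1.95 CPM in T24R2 (SD, n = 5), with all T24R2 libraries lower. ZWINT, a kinetochore protein gene, was at 96.4 ± 8.76 and 49.5 ± 4.74 CPM. Between them and the step, CCDC6 had a log2 fold change of -0.02 ± 0.06 (SE), and its libraries overlapped between the lines.

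ANK3, the last tested gene before the step, encodes ankyrin-G, which links membrane proteins to the spectrin skeleton. It was at 4.66, 3.88, 5.36, 4.93 and 3.77 CPM in T24 replicates 1 to 5 and at 43.2, 48.9, 49.6, 46.8 and 49.9 CPM in T24R2. Every T24R2 library was higher, and the log2 fold change was 3.40 ± 0.10 (SE). CDK1, the first tested gene after the step, encodes the kinase that drives entry into mitosis. It was at 181, 186, 188, 183 and 188 CPM in T24 and at 51.8, 58.2, 55.7, 57.5 and 54.3 CPM in T24R2, lower in every T24R2 library, with a log2 fold change of -1.74 ± 0.05 (SE). The neighbours of the step thus differed in opposite directions, each by more than the median of its stretch, and 44.8 kb parted their start sites in the tables. The windows of both genes were among those that placed the border, so their opposite directions are a description only.

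The 2 stretches also differed in gene content, window level and GC content. Of these, the search used the window levels, as the ratio between the lines. The last stretch held 5.71 tested genes per Mb and the first 3.69, and 77.9% against 68.6% of the tested genes were protein-coding. The median window of the last stretch had 80.3 CPM in T24 and 49.2 CPM in T24R2, and that of the first had 35.9 and 37.4 CPM. A single gene held over 80% of the counts in 81 windows of the first stretch and in 93 of the last. The median GC content of the windows was 41.4% in the first stretch and 42.9% in the last.

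The medians of both stretches were also read within subsets of windows or genes, split by some of these and other features. The difference between the medians, last minus first on the log2 scale, was -0.85 in the windows of lower GC content and -0.63 in those of higher GC content. Among windows with the lowest, middle and highest summed counts (3 classes of about equal size) the differences were -0.48, -0.71 and -0.91. Windows led by 1 gene gave medians of 0.12 and -0.47 in the first and last stretch, and those not led by 1 gene gave 0.46 and -0.64. Among the tested genes it was -1.02 for genes on the plus strand and -0.89 for genes on the minus strand, -0.88 for protein-coding genes and -1.07 for the others, and -1.32 for the shorter and -0.72 for the longer genes. Genes overlapped over more than 10% of their exons by another gene on the opposite strand gave -1.20 and the rest -0.89. The last stretch was the lower one in every subset listed, and the size of the difference moved most with gene length and with the lead of a single gene. The subsets hold the same contrast that placed the step, so they describe it and do not check it.

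**Figure D3:**
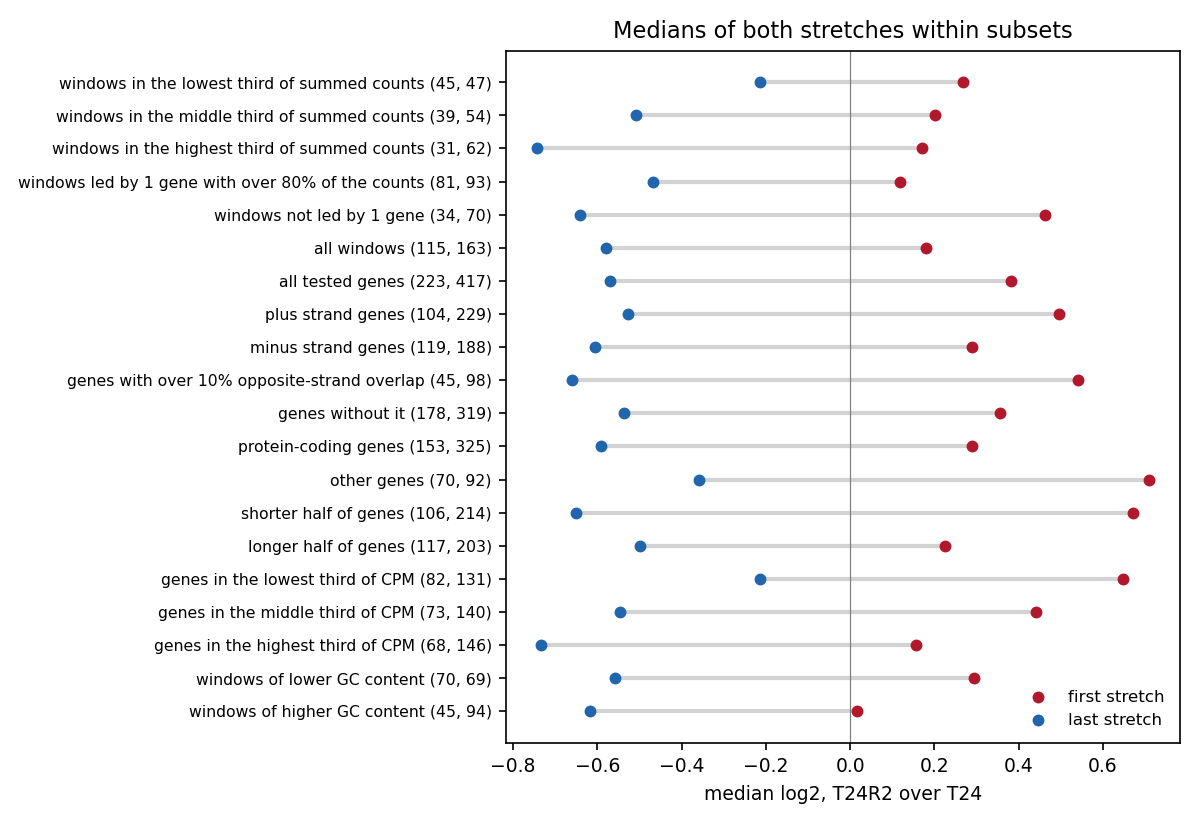
Red and blue points are the median log2 ratio or fold change, T24R2 over T24, of the first and last stretch within each subset; the numbers after each name are the windows or genes in the first and last stretch. The blue point lies left of the red point in every subset, and it is below 0 in each.

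Of the 640 chromosome 10 genes tested in edgeR, out of 1298 with a count and 2380 in the tables, 127 were called higher and 262 lower in T24R2, at an adjusted p under 0.05 and a log2 fold change over 0.5 in size. Among all 16181 tested genes 24.9% were called higher and 26.5% lower. In the first stretch 98 of 223 tested genes were called higher and 38 lower, with a median log2 fold change of 0.38, and in the last 29 of 417 were called higher and 224 lower, with a median of -0.57. All T24R2 libraries lay above all T24 libraries for 127 chromosome 10 genes and below them for 301, beside 29.9% and 31.3% of all tested genes. The median over all tested genes was 0.01. Without TMM factors it was 0.18. Relative to the median over all tested genes, the medians of the stretches were 0.37 and -0.58 under both scalings. A change of scaling shifts all genes by nearly the same amount, so these relative values could hardly move.

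Summed counts told the stretches apart in another way, since 1 window weighed heavily on the first. The counts of the first stretch went from 9010 ± 56.4 CPM in T24 to 15471 ± 540 CPM in T24R2 (SD, n = 5). The window of VIM alone went from 840 ± 33.4 to 6760 ± 422 CPM, and without it the first stretch had 8170 ± 62.0 CPM in T24 and 8712 ± 131 CPM in T24R2, a ratio of 1.07. The last stretch went from 24364 ± 84.2 CPM to 15019 ± 192 CPM, a ratio of 0.616. The first stretch without the VIM window and the last stretch did not overlap between the lines in any library, on opposite sides. The higher sum was not shared along the first stretch. From 0 to 10 Mb the sums were 1957 CPM in T24 and 2759 CPM in T24R2. The windows led by AKR1C1 and AKR1C3 there went from 87.4 to 383 and from 29.4 to 299 CPM. From 10 to 20 Mb, with the VIM window, they were 2171 and 8356 CPM. In the blocks from 20 to 60 Mb they were 822.5, 1861, 1443 and 751 CPM in T24. T24R2 was lower in each, at 744.7, 1718, 1413 and 425.1 CPM.

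VIM encodes vimentin, the intermediate filament protein of mesenchymal cells. It was at 488, 496, 486, 459 and 473 CPM in T24 replicates 1 to 5 and at 3876, 3783, 4294, 3898 and 3907 CPM in T24R2, with a log2 fold change of 3.04 ± 0.04 (SE). The antisense gene VIM-AS1 overlaps VIM on the other strand and went from 193 ± 12.1 to 1468 ± 96.9 CPM. Because the kit is not described as strand-specific while counting used the strand option 1, counts of such an overlapping pair cannot be cleanly assigned to either gene.

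Other proximal genes went far in both directions. AKR1C1 and AKR1C3 encode aldo-keto reductases that reduce steroids and reactive carbonyls. AKR1C3 was at 29.9, 21.9, 23.6, 27.3 and 23.6 CPM in T24 replicates 1 to 5 and at 283, 296, 302, 291 and 270 CPM in T24R2, and AKR1C1 went from 73.0 ± 11.7 to 374 ± 10.8 CPM. Both were higher in every T24R2 library, with log2 fold changes of 3.51 and 2.36, although reads of such close paralogs can be shared or lost in counting. The neighbouring paralog AKR1C2 had a log2 fold change of -0.32 ± 0.22 (SE) and was not called. GATA3, a factor of luminal urothelial identity, was at 24.9, 23.1, 19.9, 21.3 and 20.8 CPM in T24 and at 0.09, 0.43, 0, 0.44 and 0.10 CPM in T24R2. It led the lowest window of the chromosome, with a log2 ratio of -6.57.

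ANXA8, an annexin gene, was at 186, 179, 180, 178 and 173 CPM in T24 and had 0 counts in all 5 T24R2 libraries, at least 602-fold lower against a floor of 3 counts per library. Its near-identical copy ANXA8L1 had 28.2 ± 1.05 CPM in T24 and was also at 0 in T24R2, at least 94.9-fold lower, so which of the copies gave the reads is uncertain. ENSG00000276850, close by on the long arm, was at 4.43 ± 0.61 CPM in T24 and at 0 in T24R2, at least 14.9-fold lower. PRTFDC1 was at 4.45 ± 0.79 CPM in T24, and its 5 T24R2 libraries held 1 count. These genes led the other 4 of the 5 lowest windows, all in the first stretch.

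The 5 highest windows were led by LINC00839, LINC02669, KNDC1, ANK3 and AKR1C3. The long noncoding RNA genes LINC00839 and LINC02669 went from 0.24 ± 0.32 CPM to between 23.2 and 27.4 CPM and from 1.45 ± 0.43 to 42.4 ± 3.39 CPM. KNDC1, a gene of RAS exchange factor type, lay near the end of the last stretch and went from 0.30 ± 0.30 to 4.18 ± 1.24 CPM. Both the highest and the lowest windows were thus mostly windows of the first stretch, which had 9 of these 10.

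The windows of the last stretch that went against its median were few. Of its 12 windows over 0.5, all had a log2 ratio over 1, from 1.07 to 3.39. The one with most counts was led by SCD, the desaturase that makes monounsaturated fatty acids, which was at 90.2, 96.1, 81.2, 83.0 and 88.9 CPM in T24 and at 831, 805, 839, 825 and 818 CPM in T24R2. SCD was higher in every T24R2 library by a log2 fold change of 3.23 ± 0.05 (SE). CHST15, a sulfotransferase gene of chondroitin sulfate, led another and had 3.61 ± 0.80 and 27.0 ± 3.25 CPM, and NEURL1, a ubiquitin ligase gene, led a further window with 14.6 ± 3.64 and 82.5 ± 5.94 CPM. The windows led by KNDC1, LRMDA, RNLS, HSPA12A, ATRNL1, UNC5B, KCNMA1 and TLL2 were low, at 0.34 to 2.72 CPM in T24. In T24R2 these windows were at 1.91 to 7.49 CPM, so their ratios rest on few counts.

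Cell cycle, replication and repair genes on the chromosome counted 13 tested members, of which 1 was called higher, 7 lower and 5 neither, beside 24.9% and 26.5% of all tested genes higher and lower, with a median log2 fold change of -0.77. Of its members 9 were distal, and 53.7% of all 417 tested genes of the last stretch were called lower. All 7 lower members were among the 9 distal ones. MKI67, the proliferation marker Ki-67, was at 717, 733, 771, 700 and 750 CPM in T24 and at 291, 311, 335, 333 and 318 CPM in T24R2, with a log2 fold change of -1.21 ± 0.04 (SE). The kinesin gene KIF11, needed to separate the spindle poles, had 167 ± 3.42 and 89.9 ± 6.24 CPM. DCLRE1C, which encodes the end-joining nuclease Artemis on the short arm, was the member called higher, with 18.3 ± 1.82 and 32.3 ± 5.15 CPM. The distal repair gene DCLRE1A had a log2 fold change of 0.01 ± 0.12 (SE).

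Of the 13 growth control and tumour suppressor genes listed, 8 were tested, 7 of them distal, 0 were called higher and 6 lower, beside 24.9% and 26.5% of all tested genes, and their median log2 fold change was -0.86. Among all tested genes of the last stretch 6.95% were called higher and 53.7% lower, which is the background for the distal members here and in the lists below. At an unadjusted p under 0.05, edgeR gave 0 of them as higher and 8 as lower, and DESeq2 and limma-voom also called 0 higher and 6 lower. The share of all tested genes at the unadjusted threshold is not given here, so nothing is read from that count. DUSP5, a phosphatase of nuclear ERK, was at 227, 191, 207, 210 and 202 CPM in T24 and at 81.9, 89.9, 86.8, 89.8 and 83.4 CPM in T24R2. The groups did not overlap, and the log2 fold change was -1.26 ± 0.05 (SE). MXI1, an antagonist of MYC, had 51.0 ± 1.42 and 29.4 ± 2.48 CPM. The 2 members not called were the distal BMP receptor gene BMPR1A, at -0.16 ± 0.08 (SE), and KLF6, the only tested member of the first stretch, at -0.17 ± 0.05 (SE).

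Cytoskeleton, adhesion and matrix genes had 19 tested members, 12 of them distal. Of the 19, 3 were called higher and 13 lower, beside 24.9% and 26.5% of all tested genes, with a median of -1.20. Beside VIM, the higher members were CXCL12, a chemokine gene at 0 in every T24 library and at 1.16 ± 0.17 CPM in T24R2 (at least 3.90-fold higher), and ABLIM1, an actin-binding protein gene, with 4.19 ± 0.76 and 19.8 ± 2.67 CPM. PLAU, the urokinase plasminogen activator, went from 528, 550, 521, 488 and 548 CPM in T24 to 184, 192, 192, 190 and 195 CPM in T24R2, although 31.0% of its exon bases overlap those of an antisense gene. P4HA1, a collagen prolyl hydroxylase subunit, had 141 ± 1.95 and 27.6 ± 1.71 CPM. ITGB1, the integrin beta 1 subunit on the short arm, was lower as well, with 1132 ± 39.5 and 516 ± 35.1 CPM and a log2 fold change of -1.13. Vinculin (VCL), which anchors actin at adhesions, had the most counts of the list in the last stretch and was not called, at -0.18 ± 0.04 (SE).

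Energy and amino acid genes had 12 tested members, 9 of them distal, with 1 called higher and 6 lower, beside 24.9% and 26.5% of all tested genes, and a median of -0.50. PGAM1, the glycolytic phosphoglycerate mutase, was at 489, 568, 530, 453 and 581 CPM in T24 and at 139, 154, 153, 153 and 147 CPM in T24R2, with a log2 fold change of -1.81 ± 0.05 (SE). Hexokinase HK1 followed with 322 ± 27.2 and 132 ± 5.24 CPM. PFKP, the platelet phosphofructokinase of the short arm, was closer, with 374 ± 10.5 and 252 ± 13.9 CPM and a log2 fold change of -0.57, which no longer passed the fold threshold without TMM factors (-0.41). The member called higher was IDI1, an isomerase of the mevalonate pathway on the short arm, with 18.8 ± 1.54 and 98.5 ± 3.72 CPM. The distal aminotransferase genes GOT1 and OAT were not called, with 48.2 ± 4.66 and 48.2 ± 1.58 CPM and with 96.2 ± 4.22 and 91.9 ± 4.08 CPM.

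Drug and redox genes had 10 tested members, 4 called higher and 4 lower, beside 24.9% and 26.5% of all tested genes, with a median of -0.32. The higher ones were AKR1C1, AKR1C3, AKR1C4 and the distal efflux pump gene ABCC2, which stayed low, at 0.66 ± 0.39 and 2.79 ± 0.66 CPM. The lower ones were all distal, namely GSTO1, GSTO2, GLRX3 and PRDX3, of thiol metabolism. PRDX3, the mitochondrial peroxiredoxin, was at 142, 165, 158, 152 and 163 CPM in T24 and at 95.4, 99.1, 89.9, 97.0 and 86.7 CPM in T24R2. MGMT, which removes alkyl groups from guanine, was not called, with a log2 fold change of -0.32 ± 0.09 (SE).

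Of 12 tested transcription and chromatin genes, 2 were called higher and 5 lower, beside 24.9% and 26.5% of all tested genes, with a median of -0.47. BMI1, a Polycomb subunit, and CREM, a cyclic AMP response factor, both of the short arm, were the higher ones. NFKB2, of the alternative NF-κB pathway, had 207 ± 7.92 and 73.6 ± 2.71 CPM, and the coactivator gene ZMIZ1 had 107 ± 9.87 and 34.0 ± 2.88 CPM. LDB1, an adaptor of LIM proteins, was lower by a smaller step, at -0.56 ± 0.06 (SE), which did not pass the fold threshold without TMM factors (-0.40). The short-arm ZEB1, a repressor of epithelial genes, had a log2 fold change of 0.16 ± 0.07 (SE) and was not called.

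Lipid and steroid genes were tested for 6 of 12 members, with 1 called higher (SCD), 2 lower, beside 24.9% and 26.5% of all tested genes, and a median of -0.04. The same background holds for the mitochondrial and IFIT lists. ERLIN1, a lipid raft protein of the endoplasmic reticulum, had 94.9 ± 6.37 and 50.2 ± 1.81 CPM, and the acyl-CoA synthetase gene ACSL5 had 33.3 ± 2.67 and 1.60 ± 0.39 CPM. LIPA, the lysosomal acid lipase, was not called, at 0.13 ± 0.07 (SE). Of the 6 tested mitochondrial genes 1 was called higher (the peptidase PITRM1, with 97.2 ± 7.84 and 151 ± 6.89 CPM) and 2 lower, with a median of -0.28. The outer membrane channel gene VDAC2 was one of the lower ones, at -0.52 ± 0.05 (SE), close to the fold threshold and not past it without TMM factors (-0.35), and the inner membrane protein gene GHITM was not called, at -0.21 ± 0.05 (SE). All 4 tested IFIT genes, which bind viral RNA, were below the fold threshold in edgeR (0 called higher, 0 lower) and in DESeq2 and limma-voom, although 4 were lower and 0 higher at an unadjusted p under 0.05, with a median of -0.31 and log2 fold changes of -0.25 (IFIT1), -0.38 (IFIT2), -0.49 (IFIT3) and -0.24 (IFIT5). Nothing is read from the unadjusted count, since the share of all tested genes at that threshold is not given here.

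The genes with the most counts in the last stretch were VCL and RPS24, a protein of the small ribosomal subunit. RPS24 was at 965, 897, 887, 911 and 881 CPM in T24 and at 409, 399, 397, 395 and 392 CPM in T24R2, and its log2 fold change was -1.19 ± 0.04 (SE). The largest distal falls among genes of at least 10 CPM were those of ADAM8, a membrane metalloprotease, with 119 ± 2.37 and 3.03 ± 0.56 CPM, and ANKRD1, a YAP target, with 122 ± 1.83 and 4.48 ± 1.28 CPM. Every T24R2 library was below every T24 library for each of the 3 distal falls.

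**Figure D4:**
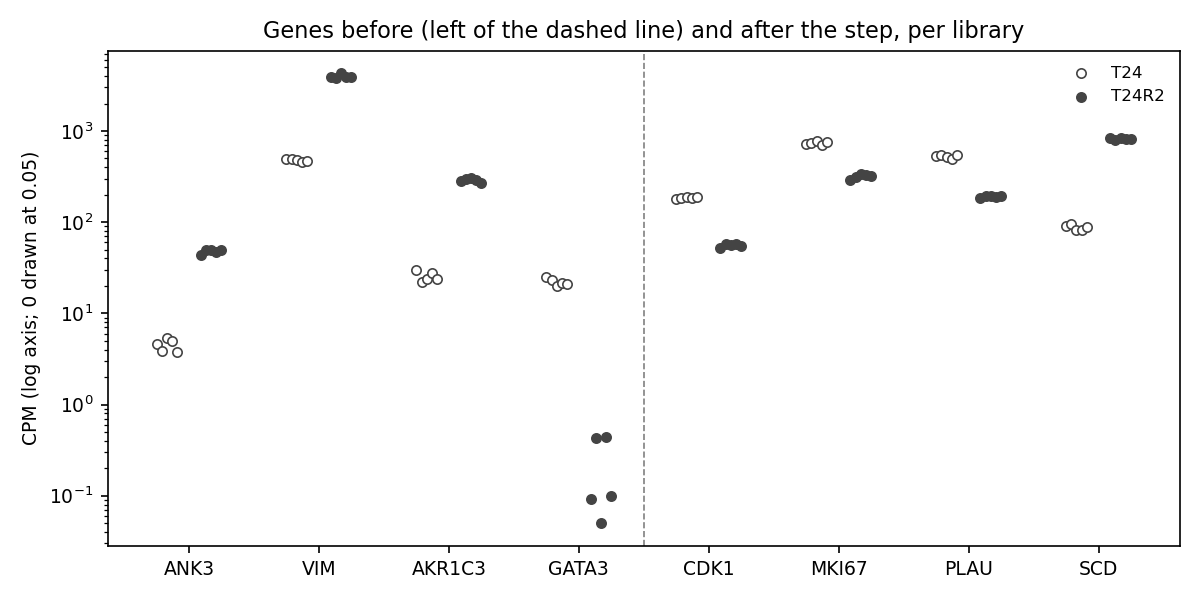
CPM of 8 genes in each library on a log axis, with T24 as open and T24R2 as filled points, a count of 0 drawn at 0.05, and 5 points per line and gene. The 4 genes left of the dashed line lie before the step and the others after it; SCD is the distal gene shown that is higher in T24R2.

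The same search on all 23 chromosomes found 13 steps, on 10 of them. By absolute size the step of chromosome 10, a difference of -0.76, was the eighth of the 13, and the largest was on chromosome 13, at -1.71. Among the 25 stretches of at least 50 Mb the last stretch of chromosome 10 had the second lowest median, after the stretch of chromosome 3 from 138.5 Mb on, at -0.88. As a whole, chromosome 10 had a median window ratio of -0.28 against 0.02 on the other chromosomes and ranked 4 from the lowest, and its median gene stood at -0.29 against 0.02. A level like that of the last stretch was therefore not particular to chromosome 10.

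**Figure D5:**
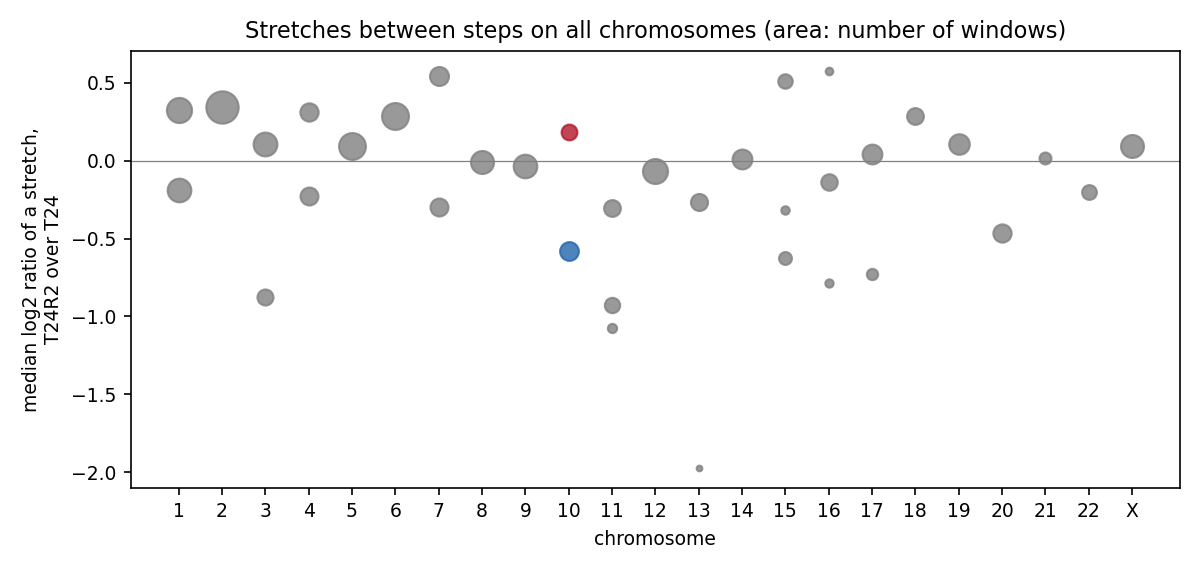
Each point is a stretch between steps, with its chromosome on the horizontal axis, its median log2 ratio of T24R2 to T24 on the vertical axis and its area in proportion to its number of windows. Red and blue mark the first and last stretch of chromosome 10, at 0.18 and -0.58; the other chromosomes are grey.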

How the data were processed

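RNA-seq counts of 10 libraries, 5 of T24 and 5 of T24R2, were analysed. Alignment by the authors was to hg38 in STAR 2.7.0. Multiply mapped and duplicate reads were removed (SAMtools 1.10), and the remaining fragments were assigned to GENCODE 39 genes by featureCounts 2.0.1 under strand option 1. The deposited values are raw counts per gene, without normalization or pooling. Removal of duplicates may lower the counts of abundant transcripts. Samples were grouped by the line in their labels.

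From these counts, log2 ratios of windows were computed from TMM-scaled sums with 3 counts added per line. Steps were placed by optimal partitioning around stretch medians with least absolute deviations, at least 8 windows per stretch and a penalty of 9.99 per step. Genes were compared with edgeR 4.0.16 in R 4.3.3 (filterByExpr, TMM, quasi-likelihood test, Benjamini-Hochberg adjustment over 16181 genes), and DESeq2 1.42.0 and limma 3.58.1 (voom) served as alternatives. The step search and the edgeR comparison were tested on simulated data. The simulated window ratios were independent of each other and less noisy than those of chromosome 10. They therefore do not show how the search behaves on these data. At this depth a gene at 3 counts or fewer in each library of a line was taken as at the floor, which covers counting error only. Other steps used Python 3.11.15, numpy 2.4.6, pandas 2.3.3 and matplotlib 3.10.9.

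The windows, gene lists and tests were chosen with earlier results of these data known. Named genes are the neighbours of the step, the leading genes of the 5 highest and 5 lowest windows, the 5 largest rises and falls at 10 CPM or more, up to 3 members of each list with the highest mean CPM, and the 2 genes with most counts in each stretch. DKK1, BICC1, ZWINT, CCDC6, CHST15, NEURL1, CXCL12, ABLIM1, PLAU, P4HA1, the remaining list members given with a value, and the genes of the closing section were named after their values were seen. The results of some genes are not reported here. No p is given for single genes or stretches. Alternatives changed the scaling, count minimum, window size and borders, summary, penalty, pseudocount, gene filter and test, and left out each library.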

Additional observations from a re-analysis of the deposited data

Results flagged for a closer look

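Of 86 groups of 5 libraries looked at, 4 had a library set apart from the others by more than Dixon's 95% value, and chance gives about 1 in 20, or 4.3. In T24R2 replicate 3 the counts of the first stretch summed to 16400 CPM, against 15017 to 15401 CPM in the other T24R2 libraries. VIM, which weighs heavily on that sum, was at 4294.1 CPM in the same library, against 3783 to 3907 CPM. In T24 replicate 3, LINC00839 was at 0.79758 CPM, against 0 to 0.2145 CPM in the other T24 libraries. IFIT3 was at 20.571 CPM in T24 replicate 5, against 24.8 to 26.4 CPM in the others.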

How the results depend on the processing

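A single step was found under every alternative run except a penalty of 0.25 times, added after seeing the data, which gave 3 steps, at 35, 42.5 and 52.25 Mb, and put medians of 1.67 and 0.29 between them. The step moved to 52.25 Mb with a minimum sum of 1000, with the median gene per window, without windows led by 1 gene and without genes overlapped from the opposite strand, to 52 and 52.2 Mb with windows of 0.5 and 0.1 Mb, and to 52.3 Mb with each gene as a point; without 1 library it lay between 52.25 and 60.75 Mb. The median of the first stretch was 0.34 without TMM factors, 0.25 with upper-quartile factors, 0.29 with 0.1 Mb windows, 0.22 with shifted borders, 0.30 with the median gene, 0.42 with each gene, 0.48 without windows led by 1 gene, 0.15 with the lowest penalty, 0.23 without overlapped genes and 0.17 to 0.23 without 1 library. That of the last was -0.42 without TMM factors, -0.50 with upper-quartile factors, -0.63 with a sum of 1000 or with 0.5 Mb windows, -0.53 with a sum of 1 or with 0.1 Mb windows, -0.47 with the median gene, -0.64 without windows led by 1 gene and -0.59 to -0.56 without 1 library. Windows over 0.5 numbered 31 and 81 at minimum sums of 1000 and 1, 30 and 91 with 0.5 and 0.1 Mb windows, and 16 without windows led by 1 gene, where windows under -0.5 numbered 47, against 170 with 0.1 Mb windows; these settings change how many windows there are. Without 1 library there were 49 to 53 windows over 0.5 and 109 to 114 under -0.5, and 118 to 132 genes called higher and 259 to 270 lower. With a mean of at least 100 counts, which tests fewer genes, 61 genes were called higher. DESeq2 called 123 genes higher and 263 lower, and limma-voom 124 and 261. The causes of the other changes were not tested.

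The replicate numbers did not pair the samples: correlations of same-numbered deviations were -0.02 to 0.02, and only replicate 2 correlated best with its own number. With a replicate block 122 genes were called higher and 261 lower. None of the genes named by the rules given above changed direction, and the other genes given with a value were not followed here. VDAC2 was no longer called without TMM factors (-0.35), with upper-quartile factors (-0.44), with a mean of at least 100 counts (-0.49) or without T24R2 replicate 2 (-0.49), as were LDB1 (-0.49) and PFKP (-0.50) with upper-quartile factors, and IFIT3 was called lower when T24 replicate 5 (-0.55) or T24R2 replicate 1 (-0.54) or 3 (-0.51) was left out.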

Other observations

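A run of 8 kept windows from 35 to 42.5 Mb, around the centromere, stood above the rest of the first stretch, and it was chosen after its values were seen. All 8 windows had a ratio above 0, with a median of 1.67, and in 7 of them every T24R2 library lay above every T24 library. The median of these windows against the T24 mean was 1.53, 1.79, 1.52, 1.70 and 1.76 in T24R2 replicates 1 to 5 and between -0.07 and 0.03 in the T24 libraries. All 18 tested genes in it had a log2 fold change above 0, and 16 were called higher and 0 lower by edgeR, against 24.9% and 26.5% of all tested genes, with 17 higher and 0 lower at an unadjusted p under 0.05, and DESeq2 and limma-voom gave the same counts of 16 and 0. The run was picked on this same contrast, so these counts describe it and lend it no support. For the unadjusted threshold, the share of all tested genes is not given here. CUL2, a scaffold of ubiquitin ligases, was at 46.5, 46.0, 49.6, 47.2 and 49.3 CPM in T24 and at 168, 176, 184, 175 and 190 CPM in T24R2. CCNY, a membrane-bound cyclin gene, had 59.5 ± 2.14 and 186 ± 4.72 CPM, CREM had 8.58 ± 1.65 and 39.3 ± 1.81 CPM, and FZD8, a WNT receptor gene, had 20.8 ± 3.45 and 87.5 ± 6.06 CPM. The zinc finger genes ZNF248 and ZNF33A nearer the centromere had smaller log2 fold changes, of 0.89 and 0.69. The windows just outside the run, from 34.25 and from 42.5 Mb, had ratios of -0.21 and 0.87. Without the run, the 73 other windows of the short arm had a median of 0.15. DNA copy number was not analysed here, and its part in the run was not tested.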
